A study of Mus musculus with 40 samples.

Results

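Transcripts of 38 imprinted genes were examined in 4 sorted bone marrow populations of mice with and without Mbd3. The genes were chosen by symbol from a list of mouse imprinted genes, and all 38 matched a row among the 49585 gene rows of the deposited count table. They lie in 18 imprinted clusters or single loci. From textbook knowledge, which need not hold in marrow cells, 17 are expressed mainly from the maternal copy and 21 mainly from the paternal copy. The counts do not separate the copies, so they show levels of RNA and not whether an imprint was kept. The 5 control mice were homozygous for an Mbd3 allele flanked by recombination sites (Mbd3_Flox/Flox), and the 5 Mbd3del mice were homozygous for the deleted allele (Mbd3_Del/Del). All 10 mice had a mixed C57BL6/129Ola background and were 46 to 51 days old, and marrow came from femur and tibia. The labels do not say how or when the allele was recombined. Haematopoietic stem cells (HSCs) were gated as CD45+ CD150+ CD48- EPCR+. The later populations were LMPPs (lymphoid-primed multipotent progenitors), ALPs (all-lymphoid progenitors) and BLPs (progenitors biased to the B lineage). All 3 were gated as lineage-negative cells with Sca-1, c-Kit, high Flt3 and no B220. Of these, LMPPs lacked the interleukin 7 receptor, ALPs carried it without Ly6D, and BLPs carried it with Ly6D. Every mouse gave all 4 populations, so there were 8 groups of 5 libraries. The labels give 150 cells for an HSC pool and 100 for the others, while the design text gives the reverse. In either case, cell number and the HSC stage cannot be told apart.

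At an imprinted locus, DNA methylation set in the egg or the sperm marks a control region, and the marked and unmarked copies then differ in expression. Neighbouring genes share such a region, so growth-promoting genes, growth-restraining genes and long non-coding RNAs that silence their neighbours can sit side by side. Several imprinted genes, among them H19, Grb10, Ndn, Meg3 and Cdkn1c, are known for expression in quiescent stem cells of the marrow. Mbd3 is a subunit of NuRD, a complex that couples nucleosome remodelling to histone deacetylation. The methyltransferase Dnmt1, its partner Uhrf1 and the zinc finger protein Zfp57 are known to keep imprints through cell division.

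Levels are given as counts per 1000000 gene counts (CPM), for control mice in the order mouse10357, mouse10358, mouse10372, mouse10380 and mouse10381 and for Mbd3del mice in the order mouse10360, mouse10361, mouse10365, mouse10376 and mouse10384. The libraries held 2974305 to 9082610 gene counts, so that 3 counts equal 0.330 to 1.01 CPM. Mbd3 reached at most 3.24 CPM in any Mbd3del library and was never below 8.18 CPM in a control library. Sex-linked transcripts went against the labelled sex in 2 of 10 mice, both controls (mouse10372 and mouse10381). The 6 HSC markers (Procr, Slamf1, Mecom, Hlf, Fgd5 and Meis1) summed to 1206 to 1866 CPM in control HSCs and 1568 to 2238 CPM in Mbd3del HSCs, and to at most 789 CPM in any later library. The 6 lymphoid markers (Flt3, Il7r, Ly6d, Dntt, Rag1 and Ebf1) summed to at most 106 CPM in HSC libraries and to at least 1133 CPM in the others. In sorted bulk pools, fewer cells that express a gene and less RNA per cell cannot be told apart.

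Of the 38 imprinted genes, 23 reached a mean of 5 CPM in at least 1 of the 8 groups, and 15 did not. HSC libraries held counts of 22 to 31 imprinted genes, and the other libraries of 12 to 22. The summed level of the genes was 1246 to 1715 CPM in the 10 HSC libraries and 603 to 1204 CPM in the other 30. For 11 genes, over 90% of all counts came from the 10 HSC libraries: Grb10, Phlda2, Snrpn, Meg3, H19, Asb4, Igf2, Rian, Mirg, Magel2 and Peg10, the last pair on 7 and 3 counts. Per kilobase of annotated exon, the highest control HSC means were those of Impact, a regulator of the stress kinase GCN2, at 66.7 CPM per kb, and of Phlda2, a growth restrictor, at 56.1 CPM per kb. They were followed by H13 (23.8 CPM per kb), Commd1 (22.5), Ndn (21.9), Blcap (21.6), Snrpn (18.1) and Grb10 (15.2). On the same scale Meg3 had 0.895 and Kcnq1ot1 0.730 CPM per kb, which spreads the reads of Kcnq1ot1 over an annotated exon length of 93.1 kb.

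**Figure D1:**
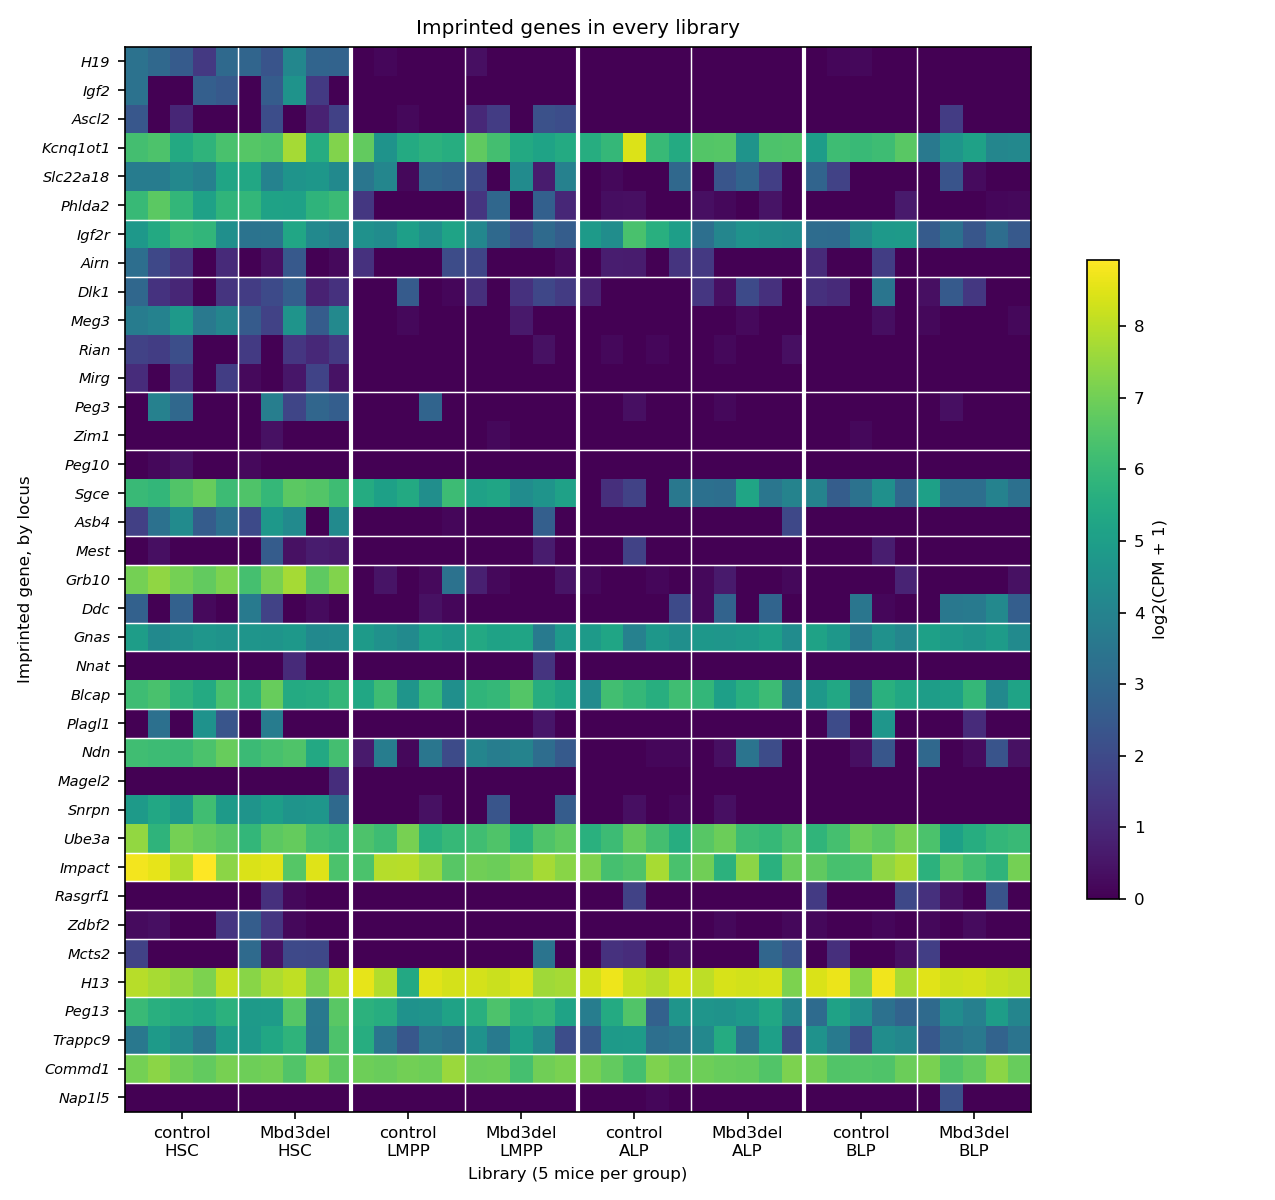
Colour shows log2(CPM + 1) for each imprinted gene with any count (rows, grouped by locus) in each of the 40 libraries (columns, 5 mice per group). The rows of Grb10, Phlda2, Snrpn, Meg3 and H19 are bright in the 10 HSC columns and dark in nearly all later ones, while those of H13, Commd1, Ube3a and Gnas are bright throughout.

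Between HSCs and LMPPs a group of imprinted genes fell steeply in both genotypes. In control mice Grb10, Phlda2, Meg3, H19, Snrpn, Asb4 and Ndn were lower in LMPPs, and in Mbd3del mice Grb10, Phlda2, Meg3, H19, Ndn and Sgce. By BLPs, Sgce and Impact were also lower in both genotypes. Called here means an edgeR adjusted p under 0.05 over all genes tested. From HSCs to LMPPs, 7 of 19 tested imprinted genes were called lower and 0 higher in control mice, where 5.93% of all tested genes were called and 3.17% were called lower. In Mbd3del mice 6 of 21 were called lower and 0 higher, beside 6.74% of all genes called and 3.75% called lower. From HSCs to BLPs, 10 of 20 were called lower and 0 higher in control mice, beside 15.7% of all genes called and 8.33% called lower. In Mbd3del mice 11 of 19 were called lower and 1 gene, H13, higher, beside 19.3% of all genes called, 9.83% lower and 9.48% higher. The libraries did not overlap for 7, 7, 10 and 10 lower genes in these 4 comparisons, beside 6.31%, 5.44%, 10.3% and 11.8% of all genes. A gene seen in HSCs alone passes the expression filter through its HSC libraries and so had to differ, so these counts describe the genes and do not test the list.

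Both genotypes shared 5 calls from HSCs to LMPPs, 71.4% of the control and 83.3% of the Mbd3del calls. They shared 8 from HSCs to BLPs, 80.0% of the control and 66.7% of the Mbd3del calls. Asb4, called from HSCs to BLPs in control mice alone, was not tested for that step in Mbd3del mice. The matching shares over all called genes were not computed, so these shares do not set the imprinted genes apart. The median log2 fold change from HSCs to BLPs was -1.42 for the tested imprinted genes and -0.01 for all genes in control mice. In Mbd3del mice it was -2.15 against -0.11, and without scaling of library totals -2.41 against -0.32. Genes with 0 counts in BLPs lie below both medians at their lower bound as well, so the medians do not depend on their fitted values. The medians too include genes that passed the filter through their HSC libraries, and they describe the genes without testing the list. Of the 17 genes listed as maternally expressed, 13 were tested from HSCs to BLPs in control and 12 in Mbd3del mice. Of these, 5 and 6 were called lower, and 1, H13, higher in Mbd3del mice. Of the 21 genes listed as paternally expressed, 7 were tested in each genotype and 5 were called lower in each. Of all genes, 8.33% were called lower in control and 9.83% in Mbd3del mice.

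Among the genes called from HSCs to BLPs in both genotypes and given a RefSeq promoter window, Snrpn, Grb10, Phlda2 and Meg3 had the largest fitted falls, averaged over the genotypes; where BLPs held 0 counts, the fitted value and so the order depend on the offset of the fit. Their promoters are shown because these 4 genes moved together, with 250 bases before and 50 after a RefSeq start on GRCm38.p6. Where a gene has several starts, the one richest in CpG was taken. Capitals mark TGCCGC on either strand, the core of the sequence that Zfp57 binds when methylated.
Snrpn, chr7:60005150-60005449, minus strand: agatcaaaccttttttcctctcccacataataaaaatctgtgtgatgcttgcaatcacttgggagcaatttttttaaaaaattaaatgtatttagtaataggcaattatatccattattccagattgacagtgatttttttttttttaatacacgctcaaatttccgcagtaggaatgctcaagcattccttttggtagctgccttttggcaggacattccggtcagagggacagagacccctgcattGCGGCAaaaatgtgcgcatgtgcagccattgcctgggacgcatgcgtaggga
Grb10, chr11:12037371-12037670, minus strand: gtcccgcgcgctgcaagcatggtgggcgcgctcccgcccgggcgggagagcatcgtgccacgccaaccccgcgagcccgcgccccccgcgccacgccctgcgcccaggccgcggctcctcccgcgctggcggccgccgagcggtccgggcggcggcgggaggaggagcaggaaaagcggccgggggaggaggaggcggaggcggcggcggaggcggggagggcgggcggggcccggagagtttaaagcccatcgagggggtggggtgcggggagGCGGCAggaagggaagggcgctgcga
Phlda2, chr7:143502475-143502774, minus strand: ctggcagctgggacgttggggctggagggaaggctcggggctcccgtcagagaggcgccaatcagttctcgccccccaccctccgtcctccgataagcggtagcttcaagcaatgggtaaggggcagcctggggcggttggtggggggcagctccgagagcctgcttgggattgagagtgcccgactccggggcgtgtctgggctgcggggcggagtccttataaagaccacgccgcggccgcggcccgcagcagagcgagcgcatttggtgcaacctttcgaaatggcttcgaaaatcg
Meg3, chr12:109540746-109541045, plus strand: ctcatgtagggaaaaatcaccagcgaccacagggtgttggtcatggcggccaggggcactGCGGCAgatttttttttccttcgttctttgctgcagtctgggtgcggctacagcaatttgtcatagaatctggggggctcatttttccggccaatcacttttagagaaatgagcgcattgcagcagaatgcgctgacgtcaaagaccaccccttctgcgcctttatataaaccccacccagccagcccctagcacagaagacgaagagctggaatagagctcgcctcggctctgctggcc
The Grb10 promoter held 45 CpG sites, that of Phlda2 26, that of Meg3 13 and that of Snrpn 7. One TGCCGC match was found in each of Snrpn, Grb10 and Meg3, and Phlda2 had 0. RefSeq promoters were found for 32 of the 38 genes. Of their 49 promoter windows 26.5% held the motif, against 11.6% of all 32851 windows, and their median number of CpG sites was 15 against 7. A match is a run of letters and was not tested as a binding site.

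Grb10, an adaptor that restrains signalling from insulin and growth factor receptors, lies at chr11:11930508-12038683 (minus strand). It had 134, 173, 134, 108 and 143 CPM in control HSCs. In Mbd3del HSCs it had 78.4, 137, 208, 104 and 149 CPM. In control LMPPs it had 0, 0.374, 0, 0.160 and 9.26 CPM and in Mbd3del LMPPs 0.735, 0.133, 0, 0 and 0.387 CPM. All 10 HSC libraries lay far above every LMPP library, and the LMPP library of control mouse10381 stood apart from the other 9. The log2 fold change was -6.01 ± 1.15 (SE) in control mice (edgeR adjusted p = 0.00622) and -8.88 ± 0.62 in Mbd3del mice (edgeR adjusted p = 3.89e-07). Without the LMPP library of mouse10381 the control value was -9.66. No ALP or BLP library reached 1 CPM, and BLPs held 3 counts in control and 2 in Mbd3del mice. The HSC level per gene count was 1549 times that of BLPs in control mice, with a 95% counting interval of 529.7 to 7516. Its neighbour Ddc, an amino acid decarboxylase, was sporadic, with means of 2.37 CPM in control HSCs and 2.87 CPM in Mbd3del HSCs. Its highest mean was 9.03 ± 6.55 CPM (SD, n = 5) in Mbd3del BLPs, with 0, 10.99, 11.6, 17.2 and 5.397 CPM in the 5 libraries.

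Phlda2, a placental growth restrictor, lies at chr7:143501545-143503150 (minus strand). It had 63.9, 101, 59.6, 33.4 and 56.1 CPM in control HSCs and 59.3, 34.6, 33.2, 54.7 and 66.1 CPM in Mbd3del HSCs. In LMPPs it had 1.72, 0, 0, 0 and 0 CPM in control mice and 1.62, 6.93, 0, 5.65 and 0.968 CPM in Mbd3del mice. Every HSC library exceeded every LMPP library, and 1 control and 4 Mbd3del LMPP libraries held counts. The log2 fold change was -7.45 ± 1.15 in control mice (edgeR adjusted p = 0.00149) and -3.95 ± 0.80 in Mbd3del mice (edgeR adjusted p = 0.00660). Without the LMPP library of control mouse10357, which held all control LMPP counts, the control value was -11.59. With 0 counts left in control LMPPs, that value depends on the offset of the fit. BLPs held 2 counts in each genotype, and the HSC level was 1064 times (95% counting interval 294 to 8795) the BLP level in control and 757 times (209 to 6260) in Mbd3del mice.

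H19, a long non-coding RNA that hosts a microRNA, and Igf2, a growth factor, form the neighbouring domain on chromosome 7. H19 lies at chr7:142575529-142578143 (minus strand); positions are on GRCm38. H19 had 9.18, 7.09, 4.97, 1.78 and 7.23 CPM in control HSCs and 6.57, 4.03, 16.5, 6.35 and 6.12 CPM in Mbd3del HSCs. It was present in all 10 HSC libraries and in 4 of the other 30, of which the highest had 0.294 CPM. Control HSCs held 172 counts and control LMPPs 1, so the HSC level was 224 times the LMPP level (95% counting interval 39.6 to 8890). The edgeR adjusted p was 0.00355 from HSCs to LMPPs and 0.00142 from HSCs to BLPs in control mice, and 0.00383 and 0.00116 in Mbd3del mice. Igf2 had 9.38, 0, 0, 5.53 and 4.59 CPM in control HSCs and 0, 5.04, 23.3, 1.84 and 0 CPM in Mbd3del HSCs. It was seen in 3 HSC libraries of each genotype and in none of the other 30 libraries. Igf2 did not pass the expression filter of the steps; its pooled HSC level was at least 48.1-fold higher than that of LMPPs in control and at least 71.7-fold higher in Mbd3del mice, against a floor of 3 counts over the 5 LMPP libraries.

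In the same cluster, the transporter gene Slc22a18 kept counts in 9 of 10 LMPP libraries. It had 12.4, 12.5, 16.8, 13.9 and 37.3 CPM in control HSCs, 10.3, 15.9, 0.154, 6.87 and 5.93 CPM in control LMPPs and 6.27, 2.39, 0, 0 and 0 CPM in control BLPs. In Mbd3del mice it had 40.1, 14.5, 23.6, 25.4 and 18.003 CPM in HSCs, 2.79, 0, 18.9, 0.611 and 14.1 CPM in LMPPs and 0, 3.95, 0.193, 0 and 0 CPM in BLPs. HSC and LMPP libraries overlapped in both genotypes, and HSC and BLP libraries did not. From HSCs to BLPs the log2 fold change was -4.88 ± 1.28 in Mbd3del mice (edgeR adjusted p = 0.0144), and -8.47 without the BLP library of mouse10361. In control mice it was -3.31 ± 1.28 (edgeR adjusted p = 0.106). Kcnq1ot1, the antisense RNA that silences genes of this domain, lies at chr7:143203458-143296549 (minus strand) and overlaps Kcnq1. It shares 1.202% of its exon bases with exons of Kcnq1 and other gene models. That share leaves out introns, and unstranded reads from introns of Kcnq1 could be counted as well. Kcnq1ot1 had 76.3, 85.04, 41.6, 55.3 and 81.8 CPM in control HSCs and 94.6, 86.7, 209, 45.1 and 148 CPM in Mbd3del HSCs. BLP means were 67.1 ± 24.7 CPM in control and 20.3 ± 8.62 CPM in Mbd3del mice (SD, n = 5 each). The step from HSCs to BLPs was called lower in Mbd3del mice (-2.28 ± 0.39, edgeR adjusted p = 0.000735), while the control value was 0.09 ± 0.33 (edgeR adjusted p = 0.911). The transcription factor gene Ascl2 was scarce, with at most 4.39 CPM in any library.

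Meg3, a long non-coding RNA of the Dlk1-Meg3 locus, lies at chr12:109541001-109571726 (plus strand). It had 12.4, 14.6, 27.02, 11.2 and 15.7 CPM in control HSCs and 4.89, 2.35, 23.4, 5.12 and 17.5 CPM in Mbd3del HSCs. Every HSC library exceeded every later library, of which the highest had 0.536 CPM. In control mice 424 HSC counts stood against 1 LMPP count, a ratio of 552 (95% counting interval 98.5 to 21841), with an edgeR adjusted p of 0.000836. In Mbd3del mice 311 counts stood against 3, a ratio of 127 (42.9 to 617), with an edgeR adjusted p of 0.00840. Rian and Mirg, the non-coding RNAs downstream of Meg3 that host small RNAs, followed at lower levels. Mirg was seen in 7 HSC libraries and in 0 of the other 30, and Rian in 7 HSC and 5 other libraries. Dlk1, the paternally expressed ligand of the locus, reached at most 9.97 CPM in any library and was seen in 9 of 10 HSC libraries and 17 of 30 others.

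Snrpn and Ndn belong to the locus deleted in Prader-Willi syndrome. Snrpn, which encodes a spliceosomal protein, lies at chr7:59982495-60140219 (minus strand) and shares 34.1% of its exon bases with Snurf and other gene models, so its counts are uncertain to that extent. It had 28.3, 39.7, 26.7, 72.1 and 28.4 CPM in control HSCs and 23.8, 31.3, 23.6, 25.01 and 7.201 CPM in Mbd3del HSCs. In LMPPs it had 0, 0, 0, 0.320 and 0 CPM in control mice and 0, 4.13, 0, 0 and 5.03 CPM in Mbd3del mice. HSC and LMPP libraries did not overlap in either genotype, and all 10 BLP libraries were at 0. From HSCs to LMPPs Snrpn was called in control mice (1105 against 2 counts, 719 times higher per gene count, 95% counting interval 199 to 5943, edgeR adjusted p = 0.000170). In Mbd3del mice it was not called (log2 fold change -3.57 ± 1.22, edgeR adjusted p = 0.107). From HSCs to BLPs it was at least 438-fold lower in control mice (edgeR adjusted p = 3.88e-05) and at least 213-fold lower in Mbd3del mice (edgeR adjusted p = 0.000181), against a floor of 3 counts over the group.

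Ndn, which encodes the growth suppressor necdin, lies at chr7:62346569-62350262 (plus strand). It had 72.5, 69.1, 66.8, 82.8 and 114 CPM in control HSCs and 67.4, 80.02, 87.2, 40.6 and 76.5 CPM in Mbd3del HSCs. In LMPPs it had 0.574, 12.7, 0.154, 10.4 and 3.08 CPM in control mice and 15.7, 12.9, 14.998, 8.097 and 4.84 CPM in Mbd3del mice. LMPPs kept a lower level that varied between mice, and no LMPP library reached an HSC library. The log2 fold change was -3.83 ± 0.85 in control mice (edgeR adjusted p = 0.0166) and -2.58 ± 0.39 in Mbd3del mice (edgeR adjusted p = 0.000725, but 0.201 in a joint fit of all 40 libraries). In BLPs the means were 0.903 CPM in control and 2.33 CPM in Mbd3del mice, with log2 fold changes from HSCs of -6.28 ± 1.05 and -4.61 ± 0.90 (edgeR adjusted p = 0.000758 and 0.00187). Without the BLP library of control mouse10380 the control value was -9.57. Without control animals mouse10372 and mouse10381 together, the step from HSCs to LMPPs lost Ndn (edgeR adjusted p = 0.103), H19 (0.0818) and Asb4 (0.0795), and 4 of 7 genes were called. Ube3a, the ubiquitin ligase of the locus, listed as maternally expressed, was not called in any step. It had 179, 55.5, 134, 111 and 95.7 CPM in control HSCs and 56.7, 77.2, 119.6, 100.4 and 135 CPM in control BLPs, with overlap, and shares 27.3% of its exon bases with Snhg14 and other gene models. Magel2 had 7 counts, all in 1 HSC library.

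On chromosome 6, Sgce, which encodes epsilon-sarcoglycan, kept counts in 28 of the 30 libraries after HSCs. It lies at chr6:4674350-4747207 (minus strand). In control mice it had 64.5, 58.8, 90.1, 116 and 68.2 CPM in HSCs, 43.7, 32.9, 42.1, 20.1 and 68.3 CPM in LMPPs and 0, 1.31, 2.38, 0 and 10.8 CPM in ALPs. In Mbd3del mice it had 86.6, 60.9, 102, 93.1 and 71.1 CPM in HSCs, 33.7, 37.1, 19.1, 23.4 and 33.7 CPM in LMPPs and 8.78, 8.45, 37.2, 10.2 and 14.9 CPM in ALPs. Control ALP libraries all lay below control LMPP libraries, while in Mbd3del mice 1 ALP library, that of mouse10365, lay just above the highest LMPP library and the other 4 lay below the lowest. From HSCs to BLPs the log2 fold change was -2.71 ± 0.44 in control (edgeR adjusted p = 0.000545) and -2.30 ± 0.43 in Mbd3del mice (edgeR adjusted p = 0.00143). From HSCs to LMPPs it was -1.44 ± 0.29 in Mbd3del mice (edgeR adjusted p = 0.00650, but 0.257 in the joint fit) and -0.86 ± 0.37 in control mice (edgeR adjusted p = 0.241). Asb4, a subunit of a ubiquitin ligase, had 2.196, 9.01, 18.9, 4.997 and 8.901 CPM in control HSCs and 3.03, 26.2, 18.5, 0 and 18.5 CPM in Mbd3del HSCs. It was called lower in control mice from HSCs to LMPPs (edgeR adjusted p = 0.00292) and to BLPs (edgeR adjusted p = 0.00180), where all 10 libraries of both genotypes were at 0. In Mbd3del mice 1 HSC library was at 0 and the step to LMPPs was not called (-3.42 ± 1.64, edgeR adjusted p = 0.281). Asb4 did not pass the expression filter from HSCs to BLPs in Mbd3del mice. There 320 counts stood against 0, at least 124-fold lower against a floor of 3 counts over the group. Peg10, a retrotransposon-derived gene next to Sgce, had 3 counts in all.

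**Figure D2:**
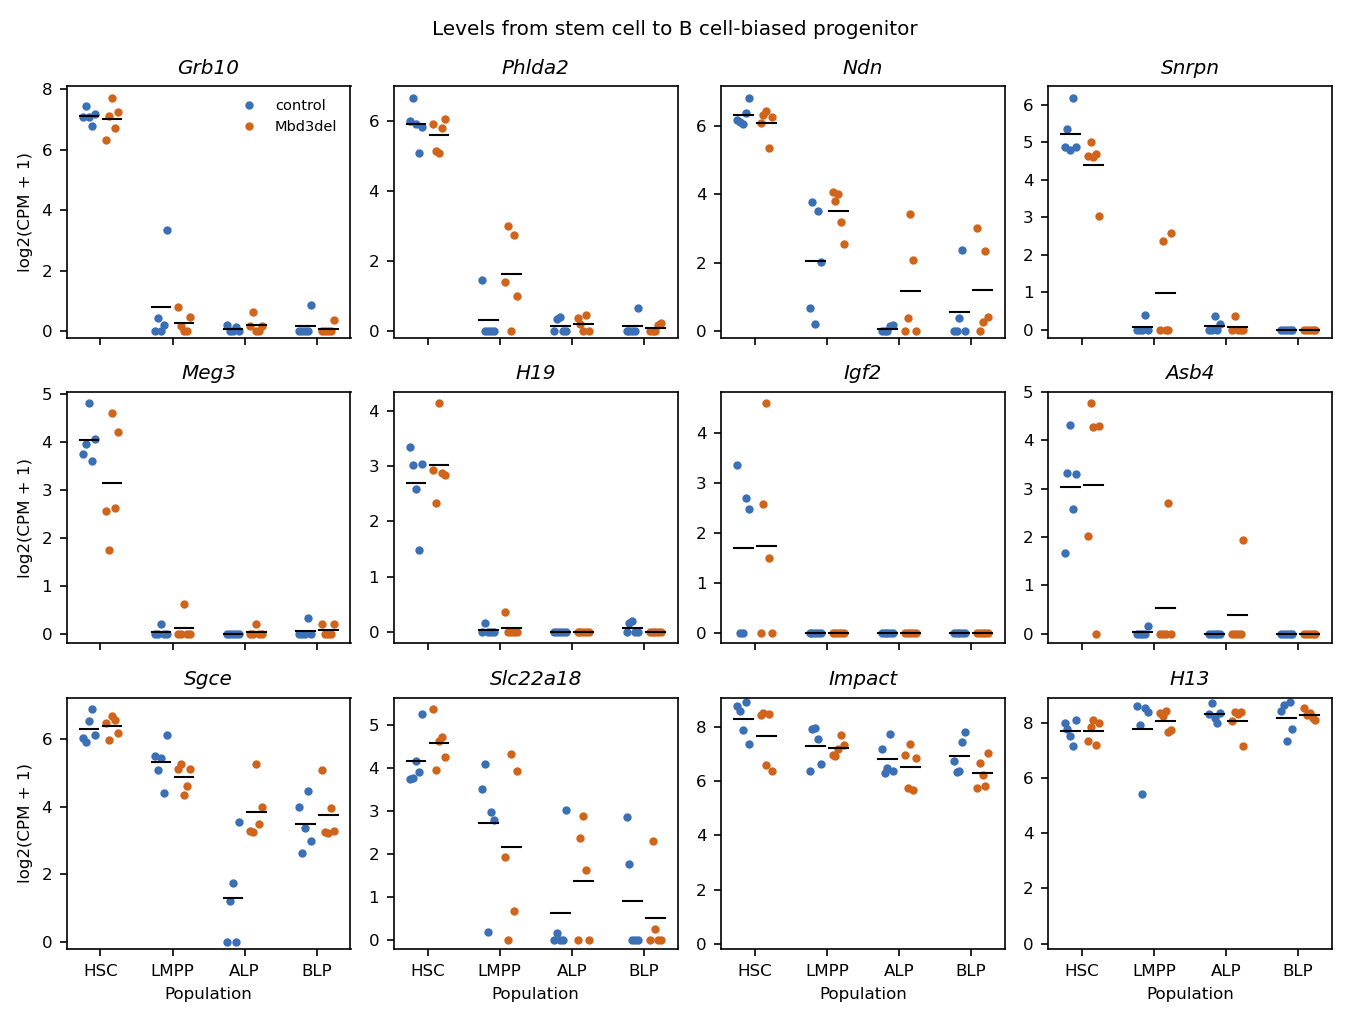
Each point is the log2(CPM + 1) of 1 library and each bar the group mean, for 12 imprinted genes in the 4 populations and 2 genotypes (5 mice each). Grb10, Phlda2, Snrpn, Meg3 and H19 drop to near 0 in most libraries after HSCs. Ndn and Sgce drop in part in LMPPs and further in ALPs and BLPs, and Impact and H13 stay between 5 and 9.

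Impact and the genes of the Peg13-Trappc9 and H13-Mcts2 loci that were called had smaller fold changes. Impact had 435, 388, 238, 486 and 164 CPM in control HSCs and 107, 79.8, 82.3, 173 and 223 CPM in control BLPs. In Mbd3del mice it had 345, 365, 95.3, 358 and 83.2 CPM in HSCs and 52.3, 101, 74.1, 54.99 and 132 CPM in BLPs. HSC and BLP libraries overlapped in both genotypes. The log2 fold change from HSCs to BLPs was -1.28 ± 0.37 in control (edgeR adjusted p = 0.0292) and -1.46 ± 0.47 in Mbd3del mice (edgeR adjusted p = 0.0410). With the mouse as a block these were -1.34 (edgeR adjusted p = 0.0544) and -1.24 (edgeR adjusted p = 0.170). In the joint fit of all 40 libraries the control value was -1.26 (edgeR adjusted p = 0.0503). The control call was also lost without the BLP library of mouse10357, mouse10358 or mouse10372 or the HSC library of mouse10357, mouse10358 or mouse10380 (edgeR adjusted p 0.0604 to 0.0740). The Mbd3del call was lost without the BLP library of mouse10360, mouse10361, mouse10365 or mouse10376 or the HSC library of mouse10360, mouse10361 or mouse10376 (edgeR adjusted p 0.0646 to 0.0964).

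Peg13, a long non-coding RNA that lies inside Trappc9 on the same strand, had 65.3, 48.4, 42.9, 38.01 and 50.9 CPM in control HSCs and 7.798, 34.3, 21.2, 9.07 and 6.12 CPM in control BLPs. The groups did not overlap, and the log2 fold change was -1.56 ± 0.48 (edgeR adjusted p = 0.0429). That call was lost without any 1 of 8 of the 10 libraries, the exceptions being the BLP libraries of mouse10358 and mouse10372 (edgeR adjusted p 0.0550 to 0.0986). It was also lost without control animals mouse10372 and mouse10381 together (edgeR adjusted p = 0.171). In Mbd3del mice Peg13 was not called (-1.28 ± 0.56, edgeR adjusted p = 0.134). Trappc9, a subunit of a trafficking complex, was called lower in Mbd3del mice, with 26.6, 38.7, 54.3, 10.9 and 86.1 CPM in HSCs and 4.55, 9.02, 11.2, 6.096 and 9.87 CPM in BLPs. The libraries overlapped through the HSC library of mouse10376. Its log2 fold change was -2.15 ± 0.52 (edgeR adjusted p = 0.00909), and -0.31 ± 0.58 in control mice (edgeR adjusted p = 0.804). H13, which encodes signal peptide peptidase, was the 1 imprinted gene called higher, with 162, 226.6, 271, 143 and 254 CPM in Mbd3del HSCs and 363, 311, 323, 287 and 269 CPM in Mbd3del BLPs. The highest HSC library lay just above the lowest BLP library. Its log2 fold change was 0.78 ± 0.20 (edgeR adjusted p = 0.0121), and the call was lost without scaling of library totals (0.0759) and in the joint fit (0.0638). In control mice it was 0.63 ± 0.25 (edgeR adjusted p = 0.116).

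Among the other imprinted genes with at least 5 CPM, Gnas, Commd1, Blcap, Ube3a and Igf2r were present in all 40 libraries and called in no comparison by edgeR. Gnas, the stimulatory G protein subunit, had 30.5, 17.9, 20.8, 24.8 and 23.1 CPM in control HSCs and 33.9, 25.3, 11.6, 21.7 and 16.1 CPM in control BLPs. These libraries overlapped, the 8 group means ran from 21.7 to 29.98 CPM, and Gnas shares 21.96% of its exon bases with Nespas and another gene model. Commd1, a regulator of copper transport, had 132, 164, 126, 109 and 137 CPM in control HSCs and 129, 90.5, 92.3, 87.02 and 119 CPM in control BLPs. Its libraries overlapped and its group means ran from 104 to 137 CPM. Blcap, a small membrane protein, had 70.1, 80.8, 54.4, 42.6 and 81.4 CPM in control HSCs and 25.8, 39.7, 7.56, 50.1 and 40.4 CPM in control BLPs. Its libraries overlapped as well, with group means from 32.7 to 65.8 CPM. Peg3, a zinc finger gene, had 0, 14.2, 7.14, 0 and 0 CPM in control HSCs and 0, 13.1, 2.601, 6.76 and 5.401 CPM in Mbd3del HSCs. It was seen in 6 of 10 HSC libraries and in 4 of the 30 later libraries. Plagl1, a zinc finger regulator of other imprinted genes, had 0, 8.71, 0, 22.7 and 4.17 CPM in control HSCs and 0, 3.11, 0, 25.04 and 0 CPM in control BLPs. It was seen in 1 Mbd3del HSC library and 4 of the 30 later libraries. The remaining genes were scarce. Mest, Nnat, Rasgrf1, Zdbf2, Nap1l5 and Zim1 did not exceed 5.23 CPM in any library, and Usp29 had no count in any library.

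Some genes used as markers of other cell types also differed between HSCs and later stages. In bulk pools, such RNA of the sorted cells themselves and that of other cells in a gate cannot be told apart. The 6 megakaryocyte markers (Pf4, Itga2b, Gp1bb, Ppbp, Vwf and Gp9) summed to 94.4 to 164 CPM in control HSCs and 111 to 311 CPM in Mbd3del HSCs, and to at most 31.2 CPM in later libraries. All 6 were seen in the HSCs of both genotypes, and their part in the falls of imprinted genes was not tested. Epor, the erythropoietin receptor of erythroid progenitors, was picked after its values were seen. It ran from 1.86 to 15.97 CPM in control and from 0.843 to 18.04 CPM in Mbd3del HSCs and had 0 counts in the BLPs of both genotypes. From HSCs to BLPs it was called lower in control mice (edgeR adjusted p = 0.00189). There it passed the expression filter through its HSC libraries and so had to differ. In Mbd3del mice it did not pass the filter for that step, and its part was not tested either. The 10 stromal and endothelial markers summed to 2.17 to 32.1 CPM in control HSCs and 4.44 to 15.8 CPM in Mbd3del HSCs, and to 5.57 to 99.0 CPM in later libraries, and no HSC library exceeded that later range. Dcn was at 0 in all 40 libraries, Lepr in all control HSC libraries and Pdgfra in all Mbd3del HSC libraries.

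In fits of each later step on its own libraries, edgeR called no further change among the imprinted genes tested. DESeq2 and some other edgeR settings called up to 3 in a step. Grb10, Phlda2, Meg3, H19, Snrpn and Asb4 did not pass the expression filter of these later steps, so their further change was not tested. Ndn passed it only from LMPPs to ALPs in Mbd3del mice. In control mice Ndn had 198 counts in LMPPs and 2 in ALPs, a fall that DESeq2 called. From LMPPs to ALPs edgeR called 0 of 12 tested imprinted genes in control mice and 0 of 13 in Mbd3del mice, beside 0.938% and 2.18% of all genes. An unadjusted p under 0.05 was found for 1 gene in each genotype, beside 7.83% and 10.6% of all genes, and DESeq2 called 2 in each. Sgce was the control gene, with a log2 fold change of -3.91 ± 1.16 (edgeR adjusted p = 0.210) and no overlap between LMPP and ALP libraries, which held for 1.66% of all genes in the lower direction. From ALPs to BLPs edgeR called 0 of 11 imprinted genes in control mice, with 0 at an unadjusted p under 0.05 and 0 called by DESeq2, beside 0.266% and 4.35% of all genes by the 2 edgeR rules. In Mbd3del mice it called 0 of 12, with 2 at an unadjusted p under 0.05 and 2 called by DESeq2, beside 0.636% and 7.75% of all genes. These were Igf2r (-1.44 ± 0.56, edgeR adjusted p = 0.504) and Kcnq1ot1 (-1.86 ± 0.41, edgeR adjusted p = 0.0565). Kcnq1ot1 was called without the ALP library of Mbd3del mouse10365, its lowest ALP library. From LMPPs to ALPs DESeq2 called 264 genes higher and 190 lower of 23499 in control mice. In Mbd3del mice it called 331 higher and 368 lower of 22287 for that step, and 198 higher and 94 lower of 21775 from ALPs to BLPs.

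No imprinted gene was called between genotypes by edgeR in any population. The lower level of Igf2r in Mbd3del mice was the 1 difference with an unadjusted p under 0.05 in all 4. In HSCs edgeR called 0 of 22 tested imprinted genes between genotypes, with 1 at an unadjusted p under 0.05 and 0 called by DESeq2. Of all genes, edgeR called 0.0176%, and 4.11% had an unadjusted p under 0.05. In LMPPs it called 0 of 13, with 1 at an unadjusted p under 0.05 and 1 called by DESeq2, beside 0.0183% and 5.18% of all genes by the 2 edgeR rules. In ALPs it called 0 of 11, with 1 at an unadjusted p under 0.05 and 0 called by DESeq2, beside 0.0182% and 2.3%. In BLPs it called 0 of 12, with 3 at an unadjusted p under 0.05 and 1 called by DESeq2, beside 0.0743% and 8.31%. Of all genes, DESeq2 called 72 higher and 32 lower of 22301 in LMPPs, and 157 higher and 88 lower of 21627 in BLPs. The median log2 fold change (Mbd3del over control) of the tested imprinted genes and of all genes was -0.12 and 0.02 in HSCs, -0.05 and 0.01 in LMPPs, -0.18 and -0.04 in ALPs, and 0.08 and -0.03 in BLPs. Without scaling of library totals, the LMPP median of the imprinted genes changed sign to 0.01, while that of all genes rose to 0.12. None of Snrpn, Grb10, Phlda2 and Meg3 was called between genotypes in HSCs by edgeR. Grb10 had means of 138 ± 23.1 CPM in control and 135 ± 49.3 CPM in Mbd3del HSCs (SD, n = 5 each).

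**Figure D3:**
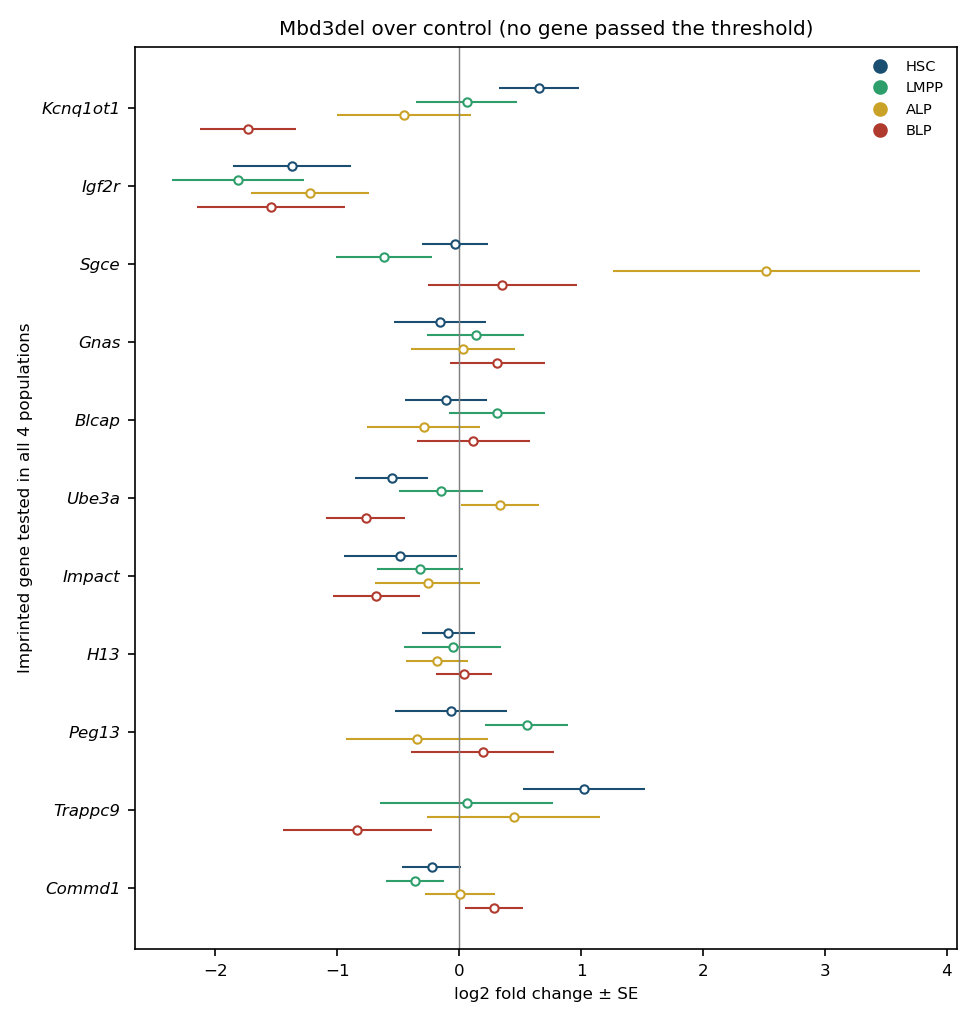
Points show the log2 fold change ± SE (Mbd3del over control) of the 11 imprinted genes tested in all 4 populations. No point passed an edgeR adjusted p of 0.05; the 4 points of Igf2r lie between -1.81 and -1.22.

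Igf2r encodes the receptor that carries IGF2 and mannose 6-phosphate proteins to lysosomes, and it lies at chr17:12682406-12769664 (minus strand). In HSCs it had 25.95, 41.6, 63.7, 57.8 and 20.7 CPM in control and 9.44, 9.75, 38.4, 17.8 and 14.04 CPM in Mbd3del mice. In LMPPs it had 21.7, 19.3, 32.3, 21.4 and 35.1 CPM in control and 16.6, 7.33, 3.93, 7.49 and 5.22 CPM in Mbd3del mice. The LMPP groups did not overlap, which held for 0.421% of all genes in the lower direction, and in HSCs 1 Mbd3del library lay inside the control range. In ALPs it had 27.8, 19.8, 82.4, 48.004 and 31.4 CPM in control and 8.502, 16.2, 22.6, 20.3 and 19.2 CPM in Mbd3del mice. In BLPs it had 7.95, 7.65, 18.5, 26.96 and 28.1 CPM in control and 4.85, 8.74, 4.25, 8.05 and 4.63 CPM in Mbd3del mice. Both of these pairs of groups overlapped at the lower end of the control range. The log2 fold change was -1.37 ± 0.49 (SE) in HSCs (edgeR adjusted p = 0.955) and -1.81 ± 0.54 in LMPPs (edgeR adjusted p = 0.742). It was -1.22 ± 0.48 in ALPs (edgeR adjusted p = 0.9999) and -1.54 ± 0.61 in BLPs (edgeR adjusted p = 0.484). DESeq2 called it in LMPPs alone (adjusted p = 0.0116). The 4 populations come from the same mice, so these are not 4 independent comparisons.

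When the 4 libraries of each mouse were summed, a fit added after the data were seen, edgeR called 0 of 26 tested imprinted genes, with 3 at an unadjusted p under 0.05 and 1 called by DESeq2, beside 0.173% of all genes called by edgeR and 8.03% at an unadjusted p under 0.05. In that fit Igf2r had a log2 fold change of -1.31 ± 0.27 (unadjusted p = 0.000301, edgeR adjusted p = 0.102, DESeq2 adjusted p = 0.000423). The other genes at an unadjusted p under 0.05 were Impact (-0.48 ± 0.18, edgeR adjusted p = 0.481) and Mcts2 (2.55 ± 1.14, edgeR adjusted p = 0.591). On these sums DESeq2 called 136 genes higher and 144 lower of 29953. Mcts2 is a retrogene copy of Mcts1, so its reads may be shared with that gene. Airn, the antisense RNA that silences Igf2r on the paternal copy, had pooled counts of 74 in control and 32 in Mbd3del HSCs, 37 and 19 in LMPPs, 20 and 13 in ALPs, and 23 and 0 in BLPs. It was scarce, with a highest library of 8.38 CPM, and did not pass the filter of any genotype comparison within a population.

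Kcnq1ot1 had the smallest unadjusted p of the imprinted genes between genotypes in BLPs. It had 29.8, 70.1, 65.5, 71.04 and 99.1 CPM in control BLPs and 11.2, 23.96, 33.4, 16.1 and 16.8 CPM in Mbd3del BLPs. The groups overlapped through 1 library of each genotype, those of control mouse10357 and Mbd3del mouse10365. The log2 fold change was -1.73 ± 0.39 (edgeR adjusted p = 0.135, DESeq2 adjusted p = 0.00183), and edgeR called it without control mouse10357 (adjusted p = 0.0477). In the other populations it was 0.65 ± 0.33 in HSCs (edgeR adjusted p = 0.955), 0.06 ± 0.41 in LMPPs (edgeR adjusted p = 0.999) and -0.45 ± 0.55 in ALPs (edgeR adjusted p = 0.9999). Ube3a was the third gene with an unadjusted p under 0.05 in BLPs, with 57.1 ± 18.95 CPM in Mbd3del against 97.8 ± 31.6 CPM in control mice (SD, n = 5 each) and an edgeR adjusted p of 0.532. Without control animals mouse10372 and mouse10381 its log2 fold change moved from -0.77 ± 0.32 (SE) to -0.37.

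**Figure D4:**
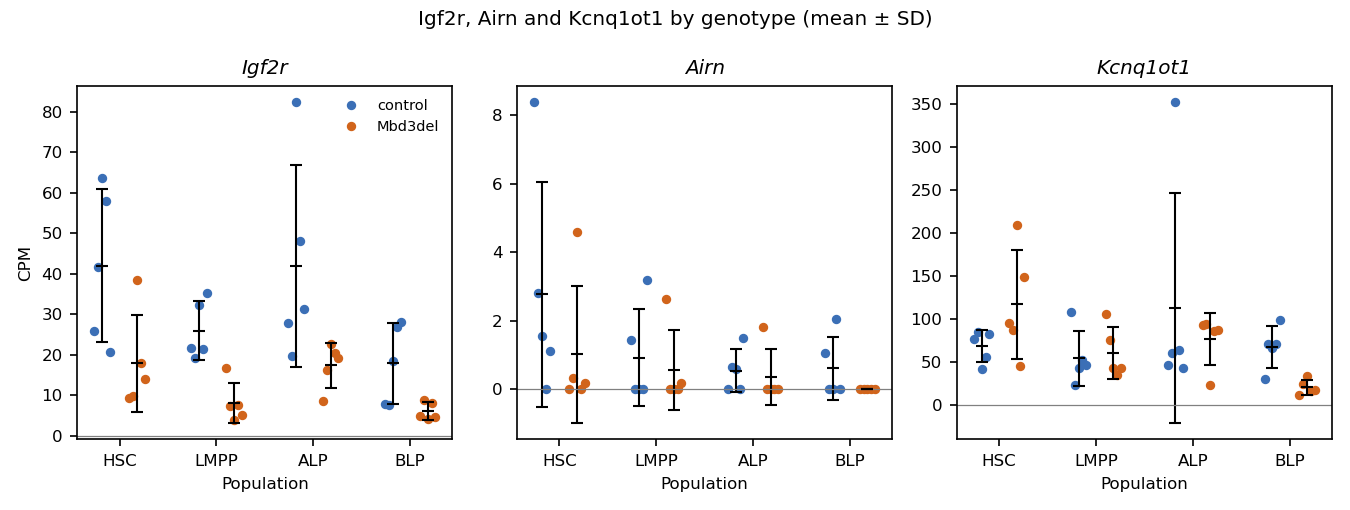
Each point is the CPM of 1 library for Igf2r, Airn and Kcnq1ot1, with the mean ± SD of each group of 5 mice. Igf2r means are lower in Mbd3del mice in each population, Airn stays below 9 CPM, and Kcnq1ot1 is lower in Mbd3del BLPs apart from 1 overlap, with 1 control ALP library at 352 CPM.

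Some scarce genes differed in their counts between control and Mbd3del LMPPs, in both directions; they were picked after their values were seen. Phlda2 had 12 counts over the control and 105 over the Mbd3del LMPP libraries, and Snrpn had 2 and 57. Ascl2 had 1 and 63 counts, with counts in 1 control and 4 Mbd3del libraries. For Snrpn the Mbd3del counts came from 2 of 5 libraries. Asb4, with 1 against 36 counts, and Mcts2, with 0 against 65, rested on a single Mbd3del library, that of mouse10376. The other way, Grb10 had 82 counts in control and 8 in Mbd3del LMPPs, Peg3 40 and 0, and Airn 37 and 19, with the counts of Peg3 in 1 control library and most of those of Grb10 in the library of control mouse10381. Phlda2, Snrpn, Ascl2, Asb4 and Mcts2 did not pass the expression filter in LMPPs, and edgeR called none of them between genotypes there without the filter. Ndn, which passed it, had 5.38 ± 5.796 CPM in control and 11.3 ± 4.69 CPM in Mbd3del LMPPs (SD, n = 5 each) and an edgeR adjusted p of 0.974. In ALPs, picked in the same way, Ndn had 2 counts in control and 90 in Mbd3del mice, Asb4 0 and 20 and Mcts2 17 and 81. Dlk1 had 5 and 44 counts there, Ddc 26 and 95 and Sgce 111 and 543. The other way, Igf2r had 1317 and 615, Airn 20 and 13, Mest 8 and 0 and Rasgrf1 8 and 0. Of these genes Igf2r and Sgce passed the filter in ALPs, and edgeR called neither between genotypes (Sgce 2.52 ± 1.26, edgeR adjusted p = 0.9999). The summed HSC markers were 279.7 to 623 CPM in control and 586 to 789 CPM in Mbd3del LMPPs, and the summed stromal and endothelial markers 12.7 to 37.7 and 31.7 to 76.9 CPM. The part of such cells in the LMPP counts was not tested.

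The difference of each step between genotypes was tested as an interaction. From HSCs to LMPPs edgeR called 0 of 26 tested imprinted genes, with 5 at an unadjusted p under 0.05 and 0 called by DESeq2, and 0% of all genes were called and 5.13% had an unadjusted p under 0.05. These 5 were Peg3 (-6.28 ± 2.93), Snrpn (5.36 ± 1.63), Ascl2 (4.97 ± 2.37), Phlda2 (3.51 ± 1.27) and Grb10 (-2.88 ± 1.30), given as Mbd3del minus control, with edgeR adjusted p from 0.745 to 0.972. The values of Peg3 and Grb10 were below 0 and those of the other 3 above 0, and all 5 rested on low counts in LMPPs. From HSCs to BLPs edgeR called 0 of 26, with 2 at an unadjusted p under 0.05 and 1 called by DESeq2, beside 0.0472% and 7.83% of all genes by the 2 edgeR rules. For Kcnq1ot1 the difference (Mbd3del minus control) was -2.35 ± 0.51 on the log2 scale (edgeR adjusted p = 0.156, DESeq2 adjusted p = 0.00406). edgeR called it without the BLP library of control mouse10357 (0.0308) or the HSC library of Mbd3del mouse10376 (0.0491). Trappc9 was the other, at -1.83 ± 0.76 (edgeR adjusted p = 0.553). For this difference DESeq2 called 39 genes higher and 30 lower of 25817.

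A list of 34 further imprinted genes was examined beside them. In the step to BLPs 4 of 19 tested were called lower in control mice (Cdkn1c, Cd81, Ppp1r9a and Casd1) and 6 of 19 in Mbd3del mice (the same 4, Tspan32 and Gab1), with 0 higher in each, beside 8.33% and 9.83% of all genes called lower. From HSCs to LMPPs 2 of 20 were called lower in control mice (Cdkn1c and Cd81), beside 3.17% of all genes. In Mbd3del mice 3 of 19 were called lower (Cdkn1c, Ppp1r9a and Sfmbt2) and 1 higher (Atp10a), beside 3.75% of all genes called lower and 2.99% called higher. Cdkn1c, which encodes the cell cycle inhibitor p57, had 28.6 ± 14.1 CPM in control and 28.3 ± 24.4 CPM in Mbd3del HSCs, and 0.768 ± 1.17 and 0.955 ± 0.572 CPM in LMPPs (SD, n = 5 each). Its edgeR adjusted p from HSCs to LMPPs was 0.0197 in control and 0.00116 in Mbd3del mice. Cd81, a tetraspanin gene near Kcnq1ot1, changed by -1.46 ± 0.18 from HSCs to BLPs in control mice (edgeR adjusted p = 5.1e-05). None of the 34 was called between genotypes by edgeR. An unadjusted edgeR p under 0.05 was found for 1 alone, of 16 tested in BLPs, where 8.31% of all genes had one.

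Of 22 genes that set or keep imprints, 4 of 20 tested were called higher from HSCs to BLPs in control mice (Uhrf1, Hells, Dnmt1 and Ctcf) and 2 of 18 in Mbd3del mice (Uhrf1 and Hells), with 0 lower, beside 7.34% and 9.48% of all genes called higher. Uhrf1, which guides Dnmt1 to newly copied DNA, rose from 14.9 ± 9.16 to 70.8 ± 35.7 CPM in control mice and from 23.6 ± 15.3 to 123 ± 32.7 CPM in Mbd3del mice (SD, n = 5 each). Hells, a chromatin remodeller needed for DNA methylation, also rose from HSCs to LMPPs in control mice, from 101 ± 34.8 to 294 ± 103 CPM (SD, n = 5 each, edgeR adjusted p = 0.00841), a step in which 2.76% of all genes were called higher. Zfp57 had 10.4 ± 7.51 CPM in control and 14.2 ± 10.5 CPM in Mbd3del HSCs and Dnmt1 57.7 ± 17.98 and 91.2 ± 49.02 CPM (SD, n = 5 each). None of the 22 was called between genotypes by edgeR. An unadjusted edgeR p under 0.05 was found for 1 of 19 in HSCs, 1 of 19 in LMPPs and 2 of 18 in BLPs. Of all genes, 4.11%, 5.18% and 8.31% had such a p in these populations.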

How the data were processed

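Smart-seq2 libraries (unstranded, without molecular identifiers) came from sorted pools of 100 or 150 cells, 40 libraries in 8 groups of 5. Per the submitters' processing notes, STAR 2.5.2b, HTSeq 0.6.1p1 and GRCm38 were used. The deposited values are raw read counts per gene for each library, as the authors made them. The sources used here give neither the annotation release nor the strand setting, so overlapping and antisense genes cannot be separated. Rows for repeat regions (79325, 0.205 to 2.28% of counts) were left out, and 49326 of 49585 gene rows were matched to a symbol. One label field of the Mbd3del LMPPs says floxed while their genotype says deleted, and the genotype was followed.

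Each comparison was fitted on its own groups with edgeR 4.0.16 (R 4.3.3, limma 3.58.1) by the quasi-likelihood F test, with TMM scaling, genes kept by a minimum count of 10 and total of 15, and Benjamini-Hochberg adjustment over all genes at 0.05. The code was tested on simulated data. The SE given with an edgeR log2 fold change was derived from the test, as its absolute value divided by the square root of F. It has no use where both later groups held 0 counts, as for Snrpn in the difference from HSCs to BLPs (SE 1329). Intervals and the floor of 3 counts cover counting error only. DESeq2 1.42.0, other scalings, no filter, a joint fit, leaving out libraries and a block for the mouse were alternatives; the newer edgeR estimator and sums per mouse were added after the data were seen. Libraries of 1 mouse are paired because they come from the same animal; the correlations of their deviations from group means over 13800 genes ran from -0.12 to 0.14 (median 0.02), 4 of 40 over 0.1.

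The genes and lists were chosen with earlier results of these data known. Genes called in any comparison or averaging 5 CPM or more in a group are described with values, and the others by range and counts. Promoters are shown for the 4 genes with the largest change from HSCs to BLPs among those called in both genotypes with a RefSeq promoter window. Promoter sequences are from RefSeq. One further marker list is not reported here as a list.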

Additional observations from a re-analysis of the deposited data

Results flagged for a closer look

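Among 112 sets of 5 libraries of a described imprinted gene, 15 had a highest or lowest library whose gap to the next exceeded 0.71 of the group's range. For independent values with a normal distribution, this rule would flag about 1 in 20, or 5.6 sets. The sets share libraries and CPM need not be normal, so 5.6 is not the number that chance gives here. Mbd3del mouse10365 held 5 of the 15. Its HSC library was the highest for H19 (16.5 CPM), Igf2 (23.3 CPM) and Igf2r (38.4 CPM), and its ALP library was the highest for Sgce (37.2 CPM) and the lowest for Kcnq1ot1 (23.4 CPM). The ALP library of control mouse10372 held 352 CPM of Kcnq1ot1, where the next library had 63.4 CPM, and its HSC library was the highest for Meg3 (27.0 CPM). Control mouse10381 was the highest for Slc22a18 in HSCs (37.3 CPM) and for Commd1 in LMPPs (192 CPM). Control mouse10380 was the highest for Snrpn in HSCs (72.1 CPM) and for Plagl1 in BLPs (25.0 CPM). Mbd3del mouse10360 was the highest for Igf2r in LMPPs (16.6 CPM) and for Sgce in BLPs (32.4 CPM). Mbd3del mouse10361 was the highest for Blcap in HSCs (115 CPM), and control mouse10357 for Trappc9 in LMPPs (46.0 CPM).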

How the results depend on the processing

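Over 45 single-gene results, 749 of 790 alternatives kept the direction and the side of the threshold, 34 lost the call, 7 gained one and 0 changed direction. From HSCs to LMPPs in control mice 4 imprinted genes were called without control animals mouse10372 and mouse10381, against 7 with them, where fewer samples entered the fit. Of all genes, 196 were called higher and 240 lower of 11237 without these animals, against 305 and 350 of 11043 with them. Leaving out 1 library at a time gave 8 to 10 calls from HSCs to BLPs in control and 11 to 14 in Mbd3del mice. DESeq2 called 1 imprinted gene between genotypes in LMPPs, 1 in BLPs and 1 in sums per mouse, 2 from LMPPs to ALPs in each genotype, 2 from ALPs to BLPs in Mbd3del mice, and 1 for the difference from HSCs to BLPs, where edgeR called 0. The joint fit called 3 from LMPPs to ALPs in control mice (Grb10, Ndn and Sgce) and 1 in Mbd3del mice (Phlda2). Of all 13800 genes in that fit, 201 were called higher and 162 lower in control mice, and 133 and 140 in Mbd3del mice. The newer edgeR estimator called 1 from LMPPs to ALPs in control mice and 1 from ALPs to BLPs in Mbd3del mice, where the fit without an expression filter also called 1. Of all genes, the newer estimator called 115 higher and 101 lower of 10871 in the control step. In the Mbd3del step it called 118 higher and 34 lower of 10842, and the fit without a filter 81 and 16 of 21775. Leaving out 1 library gave 0 to 1 calls between genotypes in BLPs, from ALPs to BLPs in Mbd3del mice and for the difference from HSCs to BLPs. In the fits with 1 call, 36 genes were higher and 7 lower of 11016 between genotypes in BLPs. From ALPs to BLPs in Mbd3del mice they were 38 and 9 of 11174. For the difference they were 8 and 5 of 12995 without control mouse10357, and 6 and 3 of 13097 without Mbd3del mouse10376. The cause of these changes in calls was not tested. With the mouse as a replicate block, 7 and 6 imprinted genes were called from HSCs to LMPPs in control and Mbd3del mice, and 9 and 11 from HSCs to BLPs. The block ended the 2 calls of Impact (edgeR adjusted p 0.0544 and 0.170) and changed no other call. For the block, and for single libraries left out from HSCs to BLPs, the calls over all genes are not given here. Those member counts therefore do not set the imprinted genes apart. Without an expression filter Peg13 in control (0.0585) and Impact in Mbd3del mice (0.0698) were also not called. With 0.330 to 1.01 CPM for 3 counts, a low level of scarce genes such as Igf2, Mirg or Airn in 1 or 2 libraries could not be told from 0.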
